A study of Mus musculus with 6 samples.

Results

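The macrophage transcripts described here are those of 10 genes, Csf1r, C1qa, C1qb, C1qc, Ctss, Fcrls, Lgmn, Tyrobp, Fcer1g and Mrc1, in cells sorted from the embryonic mouse genital tubercle. All probe sets annotated to these genes were taken, which gave 14 of the 34945 probe sets with 1 gene name, or 10 of 18193 genes. The genes had been picked because some of them read higher in the reporter-positive cells of these same arrays, so their differences between the groups are given as a description, with no test. Total RNA of sorted cells had been hybridized to Affymetrix mouse arrays, 3 for each group. Every embryo was at 12.5 dpc, on a mixed background, with males and females pooled. Both groups came from embryos that carry Shhtm1(EGFP/cre)Cjt, a fusion of a fluorescent protein and Cre recombinase made from the Shh locus, and Gt(ROSA)26Sortm3(CAG-EYFP)Hze, a yellow fluorescent protein that Cre switches on permanently. The reporter therefore marks cells that make Shh and cells whose ancestors made it. The positive group is the sorted fluorescent fraction, labelled urethral epithelium, and the negative group is the other cells of the tubercle. Replicates 1, 2 and 3 of either group were pools of 3, 5 and 2 littermates. All cells had passed through trypsin and the sorter.

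Macrophages of the embryo are phagocytes that settle in nearly every tissue during organ formation. They depend on Csf1r, the receptor for the growth factors Csf1 and Il34, clear dying cells, and carry a characteristic set of transcripts. C1qa, C1qb and C1qc encode the 3 chains of C1q, the recognition molecule that starts the classical complement pathway, and tissue macrophages are a main source of it. Ctss and Lgmn are lysosomal proteases, Mrc1 is the mannose receptor, Fcrls is a secreted relative of the Fc receptors, and Tyrobp and Fcer1g are small membrane adaptors that signal for activating receptors through a tyrosine motif known as an ITAM. Epithelial cells are not a usual source of C1q or Csf1r.

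The 3 C1q genes lie next to each other on chromosome 4, with C1qc between C1qb and C1qa in the RefSeq gene order of GRCm38.p6. The RefSeq promoter table of that build held windows of 300 bases, from 250 bases before the transcript start to 50 after it, for 7 of the 10 genes. The windows of C1qb, C1qc, Ctss and Fcrls are shown because they hold GAGGAA, and that of Fcer1g as one without it. Capitals mark GAGGAA, a core that the myeloid ETS factor Spi1 (PU.1) can bind, or its reverse complement TTCCTC. They are written 5′ to 3′ on the strand of the gene.
C1qb, chr4:136886151-136886450, minus strand: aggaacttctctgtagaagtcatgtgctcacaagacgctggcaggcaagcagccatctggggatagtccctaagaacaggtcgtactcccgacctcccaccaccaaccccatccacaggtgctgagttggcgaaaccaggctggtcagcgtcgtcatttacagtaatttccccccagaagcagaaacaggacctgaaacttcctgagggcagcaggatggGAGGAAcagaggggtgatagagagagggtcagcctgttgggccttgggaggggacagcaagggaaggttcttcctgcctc
C1qc, chr4:136892865-136893164, minus strand: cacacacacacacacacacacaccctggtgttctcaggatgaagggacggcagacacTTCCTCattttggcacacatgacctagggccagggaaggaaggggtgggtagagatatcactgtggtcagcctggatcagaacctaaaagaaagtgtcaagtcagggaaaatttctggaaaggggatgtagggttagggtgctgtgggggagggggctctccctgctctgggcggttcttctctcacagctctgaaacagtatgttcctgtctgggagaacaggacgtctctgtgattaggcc
Ctss, chr3:95526536-95526835, plus strand: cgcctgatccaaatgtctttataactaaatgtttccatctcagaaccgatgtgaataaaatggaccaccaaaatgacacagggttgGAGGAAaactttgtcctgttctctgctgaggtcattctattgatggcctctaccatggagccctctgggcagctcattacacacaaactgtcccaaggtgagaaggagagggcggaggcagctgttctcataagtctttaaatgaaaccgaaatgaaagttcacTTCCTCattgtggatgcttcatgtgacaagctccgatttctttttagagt
Fcrls, chr3:87263475-87263774, minus strand: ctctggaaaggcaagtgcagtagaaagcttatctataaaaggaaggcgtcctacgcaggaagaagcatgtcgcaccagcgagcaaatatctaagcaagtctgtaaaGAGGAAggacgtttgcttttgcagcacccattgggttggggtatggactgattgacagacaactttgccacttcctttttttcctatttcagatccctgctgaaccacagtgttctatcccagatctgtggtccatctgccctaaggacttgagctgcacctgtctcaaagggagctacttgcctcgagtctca
Fcer1g, chr1:171234300-171234599, minus strand: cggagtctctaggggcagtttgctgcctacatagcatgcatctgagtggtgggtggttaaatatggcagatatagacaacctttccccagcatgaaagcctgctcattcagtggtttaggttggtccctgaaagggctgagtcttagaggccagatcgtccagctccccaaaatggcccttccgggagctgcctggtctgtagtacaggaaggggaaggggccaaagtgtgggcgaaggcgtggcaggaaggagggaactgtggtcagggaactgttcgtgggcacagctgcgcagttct

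The first base of the match lay at -30 in C1qb, at -193 in C1qc, at -144 in Fcrls, and at -164 and 0 in Ctss, counted from the transcript start as 0. Of 8 windows of the 7 genes, 5 held the 6-base core on either strand, those of C1qb, C1qc, Ctss, Fcrls and Mrc1, and that of Fcer1g and both of Lgmn did not, where 28.3% of all 32851 windows of the same length did. The longer form GAGGAAGT (reverse complement ACTTCCTC), which contains the core, stood in 2 of the 8, C1qc and Ctss, against 3.2% of all windows. A match is only a description of these letters.

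The arrays differed widely in transcript signal. The median deposited signal of named probe sets was 4.73, 3.56 and 0.34 in positive replicates 1, 2 and 3 and 7.62, 8.84 and 2.15 in the negative ones, while spiked hybridization controls averaged 1443 to 1884 on every array. Positive replicate 3 was thus nearly dark, and the 3′ beta-actin control read 23.4 there against at least 1018 on the other arrays. The ratio of the 3′ to the 5′ beta-actin control, a sign of RNA quality, ran from 4.23 to 10.8 and from 4.45 to 6.98 in positive and negative arrays, and that of Gapdh from 6.18 to 7.35 and from 5.83 to 9.27. Background was taken as the brightest of 27 bacterial control probe sets for which no transcript had been added. It read 4.47, 4.41 and 1.12 in positive replicates 1, 2 and 3, and 5.36, 8.28 and 2.03 in the negative ones. For this reason differences are also given for the 5 arrays without positive replicate 3. Of 12 epithelial genes, all exceeded the control in each of the 3 positive arrays, and their list median on the normalized log2 scale lay 1.81, 3.06 and 2.94 above the negative mean. In the fit described below, 3 of the 12 rose in 6 arrays and 11 in 5, among them the keratin Krt8 with 4.46 (SE 0.47, adjusted p = 0.0148, limma) in 6 arrays. The Krt8 call held in 11 of 16 alternatives, with an adjusted p of 1.26e-14 to 0.610, and was lost as deposited, with spiked-control scaling, with pseudocount 64 and without negative replicate 1 or 3.

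Against this background the macrophage probe sets were detected mainly in the first 2 positive arrays. Of the 14 probe sets, 13 and 12 exceeded the control in positive replicates 1 and 2 and 2 in positive replicate 3. The counts in negative replicates 1, 2 and 3 were 8, 5 and 3. Among all named probe sets 51.3%, 44.0% and 24.6% exceeded the control in the positive arrays and 59.3%, 51.6% and 51.7% in the negative ones. The members' share in positive replicates 1 and 2 was 92.9% and 85.7%, above that of all named probe sets on the same arrays. In the negative arrays it was 57.1%, 35.7% and 21.4%, below it. The members were chosen from this contrast, so these shares are a description and nothing is read from them. The sum over the brightest probe sets of the 10 genes was 201, 140 and 4.55 in positive and 84.3, 66.5 and 8.10 in negative replicates 1, 2 and 3, in deposited units.

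**Figure D1:**
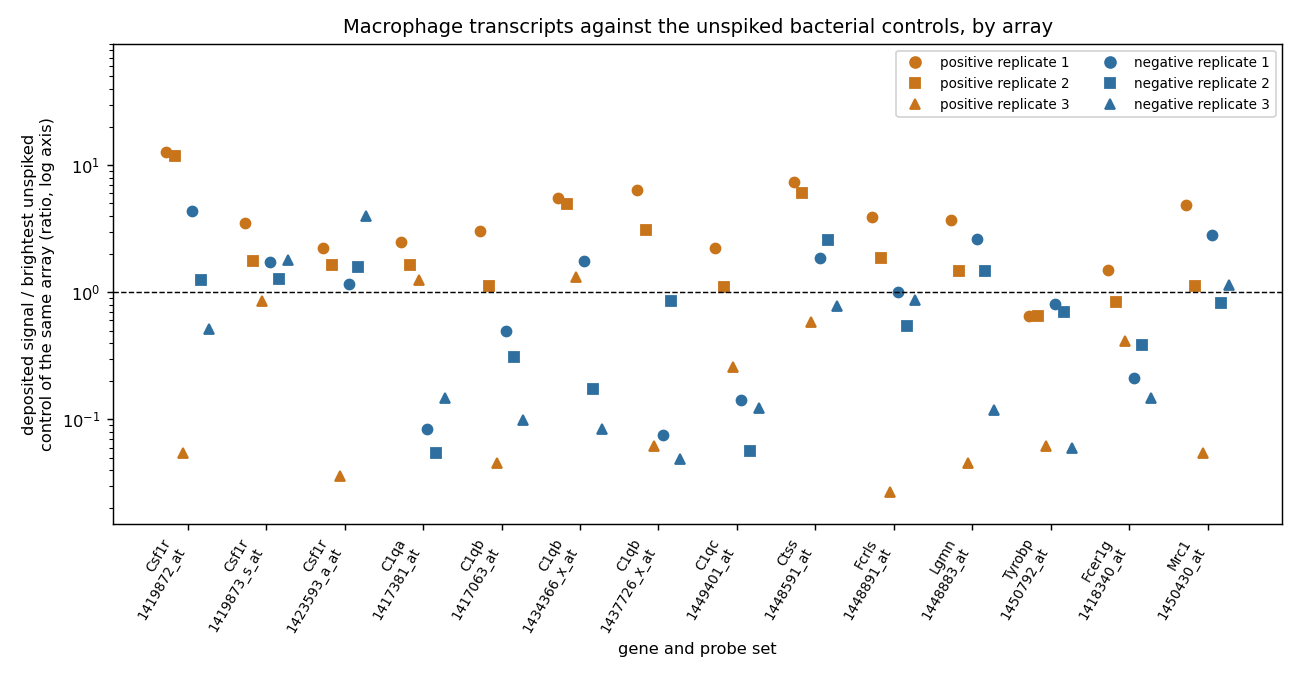
Deposited signal of each of the 14 probe sets divided by the brightest unspiked control of the same array (log axis), 1 point for each array, with the dashed line at a ratio of 1. Positive replicates 1 and 2 lie above the line for all probe sets but those of Tyrobp and, in replicate 2, Fcer1g. Positive replicate 3 lies above it only for C1qa and 1 probe set of C1qb.

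C1qa, which encodes the A chain, read 11.2, 7.27 and 1.39 in positive replicates 1, 2 and 3 as deposited and 0.45, 0.45 and 0.30 in negative ones. All 3 positive arrays were above their own control and no negative array was, so the groups did not overlap. Among named probe sets C1qa stood at the 68.4th, 68.1st and 82.9th percentile in positive arrays and at the 6.93rd, 6.21st and 21.0th in negative arrays. After quantile normalization, on the scale log2(signal + 16), C1qa averaged 4.95 ± 0.35 against 4.04 ± 0.03 (SD, n = 3 each), a difference of 0.91 (SE 0.24), and the 5-array difference was 0.80 (SE 0.17). Since no negative array measured it, each negative array was set to its lowest named signal above the control. The positive arrays were then at least 1.55-fold brighter on this scale in 6 arrays and at least 1.40-fold in 5. The 6-array value leans on positive replicate 3, the nearly dark array. Its deposited C1qa was only 1.24 times its control, yet its normalized value was the highest, 5.352 against 4.751 and 4.735 in replicates 1 and 2. The scale adds 16 to signals that are themselves around 10, which makes these differences small: with a pseudocount of 4 the difference of C1qa was 2.06.

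C1qb, the B chain, is measured by 3 probe sets. The brightest, 1434366_x_at, read 24.6, 21.8 and 1.49 in positive and 9.4, 1.44 and 0.17 in negative replicates 1, 2 and 3. Negative replicate 1 was the only negative array above its control. After normalization the groups did not overlap, with 5.5 ± 0.15 against 4.18 ± 0.22 (SD, n = 3 each), a difference of 1.32 (SE 0.29), and the 5-array difference was 1.46 (SE 0.25). The probe set 1437726_x_at read 28.3, 13.7 and 0.07 against 0.40, 7.08 and 0.10, and 1417063_at read 13.6, 4.91 and 0.05 against 2.67, 2.55 and 0.20. No negative array exceeded its control with either of these, and both were low in positive replicate 3, so that with normalized values the groups overlapped. Their normalized log2 differences were 0.81 (SE 0.34) and 0.37 (SE 0.20) in 6 arrays and 1.37 (SE 0.23) and 0.67 (SE 0.19) in 5. The suffix _x_at marks probe sets whose probes may hybridize to other transcripts, which holds for 2 of the 3.

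C1qc, the C chain, read 9.89, 4.85 and 0.29 in positive replicates 1, 2 and 3 against 0.76, 0.46 and 0.25 in negative ones. It exceeded the control in positive replicates 1 and 2 alone. Normalized signals were 4.49 ± 0.19 and 4.04 ± 0.02 (SD, n = 3 each), without overlap, and the difference was 0.45 (SE 0.15) in 6 arrays and 0.62 (SE 0.16) in 5. As deposited, positive replicate 3 was below its control and below negative replicates 1 and 2. Computed as for C1qa, the positive arrays were at least 1.23-fold brighter in 5 arrays. For 6 arrays no such bound is given, since positive replicate 3 did not measure C1qc above its control. In the summed signal of the 3 chains, positive replicates 1 and 2 reached 45.7 and 33.9, positive replicate 3 reached 3.17, and negative replicates 1, 2 and 3 reached 10.6, 2.35 and 0.72.

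Csf1r, the growth factor receptor that macrophages need to survive, gave different pictures with its 3 probe sets. The brightest, 1419872_at, read 56.7, 52.6 and 0.06 in positive and 23.6, 10.3 and 1.05 in negative replicates 1, 2 and 3. It was above the control in the first 2 arrays of both groups and below it in replicate 3 of both. Its normalized difference was 1.14 (SE 0.59) in 6 arrays and 2.07 (SE 0.31) in 5, and the groups overlapped only through positive replicate 3. The probe set 1419873_s_at read 15.8, 7.80 and 0.96 against 9.22, 10.4 and 3.64, a difference of 0.30 (SE 0.25) in 6 arrays and 0.44 (SE 0.23) in 5. The last, 1423593_a_at, read 10.1, 7.20 and 0.04 against 6.21, 13.1 and 8.07. Its difference was -0.21 (SE 0.32) in 6 arrays and 0.03 (SE 0.29) in 5. All 3 negative arrays exceeded the control with these 2 probe sets, so Csf1r signal was present in the negative fraction as well.

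Fcrls, the secreted Fc receptor relative, read 17.5, 8.26 and 0.03 in positive and 5.41, 4.47 and 1.77 in negative replicates 1, 2 and 3, and exceeded the control in positive replicates 1 and 2 and, by 1% of it, in negative replicate 1. Its normalized difference was 0.38 (SE 0.27) in 6 arrays and 0.77 (SE 0.21) in 5, where the groups did not overlap. Mrc1, which takes up mannose-bearing glycoproteins, read 21.6, 4.97 and 0.06 against 15.2, 6.83 and 2.31. Positive replicate 1 was its highest array and the groups overlapped in both fits, with a difference of 0.15 (SE 0.30) in 6 arrays and 0.47 (SE 0.26) in 5. Without positive replicate 1 the 6-array difference of Mrc1 was -0.16.

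The lysosomal proteases differed from each other. Ctss, cathepsin S, which trims the invariant chain in antigen-presenting cells, read 33.0, 26.9 and 0.65 in positive and 10.1, 21.5 and 1.59 in negative replicates 1, 2 and 3. As deposited, negative replicate 2 came close to positive replicate 2. Relative to the other probe sets of each array they were apart: Ctss stood at the 87.9th percentile of named probe sets in positive and at the 67.1st in negative replicate 2. The normalized difference was 0.83 (SE 0.40) in 6 arrays and 1.38 (SE 0.27) in 5. Lgmn, legumain, an endopeptidase that cleaves after asparagine and activates cathepsins, read 16.6, 6.47 and 0.05 against 14.0, 12.2 and 0.24. It was above the control in the first 2 replicates of both groups, and its normalized difference was 0.19 (SE 0.28) in 6 arrays and 0.51 (SE 0.25) in 5.

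The ITAM adaptors were at the edge of detection. Tyrobp (DAP12) read 2.93, 2.87 and 0.07 in positive and 4.30, 5.75 and 0.12 in negative replicates 1, 2 and 3. No array of either group exceeded its control with Tyrobp, so no fold is given, and it failed the filter on low values in the 6 arrays. Fcer1g, the shared gamma chain of Fc receptors, read 6.68, 3.67 and 0.46 against 1.14, 3.20 and 0.30 and exceeded the control in positive replicate 1 alone. After normalization its groups did not overlap, at 4.41 ± 0.08 and 4.09 ± 0.04 (SD, n = 3 each), a difference of 0.32 (SE 0.13), and the 5-array difference was 0.39 (SE 0.16). The deposited values did overlap, and apart from positive replicate 1 the normalized values came from signals below the control.

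Over the 10 genes, with the brightest probe set of each, the median normalized difference was 0.42 in 6 arrays and 0.69 in 5, where the median over all 24461 tested probe sets was -0.03 and -0.01. In the 6 arrays 13 of the 14 probe sets passed the filter on low values, and 12 of these had a positive difference, against 46.5% of all tested. In the 5 arrays all 14 passed and were positive, against 48.7%. Groups did not overlap, with positive higher, for 4 of the 14, where 5.59% of all tested probe sets did so. In the 5 arrays this held for 11 of the 14 and for 12% of all. Over the whole table, limma called 0.0491% of tested probe sets in the 6 arrays at a Benjamini-Hochberg adjusted p under 0.05, 0.0286% higher and 0.0204% lower, and 4.65% had an unadjusted p under 0.05. In the 5 arrays it called 0.405%, 0.352% higher and 0.0531% lower, and 8.17% had an unadjusted p under 0.05. The members were chosen from this contrast, so their own counts of calls are not given and nothing is read from their counts without overlap. In a bulk sample, more cells of a type and more RNA per cell cannot be told apart.

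**Figure D2:**
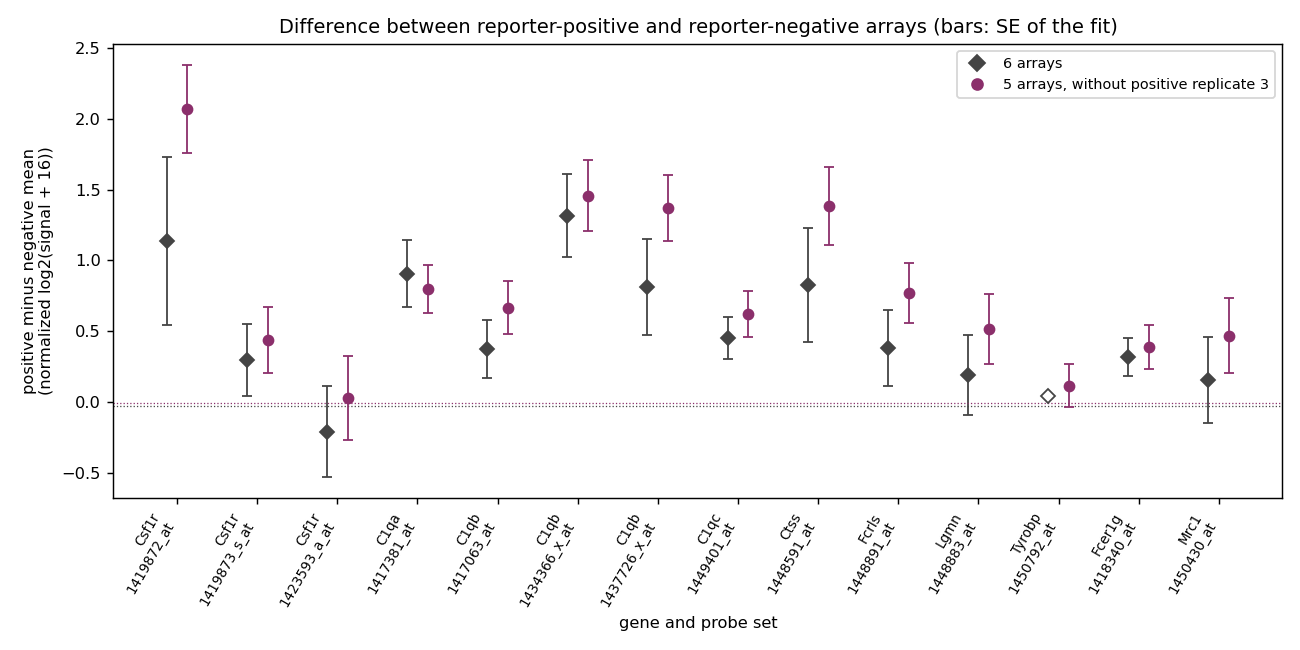
Difference between the mean of positive and of negative arrays for each probe set, on the normalized log2(signal + 16) scale, with the SE of the fit as bars, for 6 arrays (diamonds) and 5 arrays (circles). The dotted lines give the median of all tested probe sets, and the open diamond is Tyrobp, which did not pass the filter. The difference of the brightest Csf1r probe set is 1.14 in 6 arrays and 2.07 in 5.

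The members' median against the negative mean came to 0.75, 0.51 and -0.07 in the 3 positive arrays, where the epithelial list was at 1.81, 3.06 and 2.94. The mesenchymal list, genes of the connective tissue cells that make up most of the tubercle, had medians of -0.06, -2.77 and -2.34. Of its 12 tested genes 0 were called in either fit (limma, 8 and 9 at an unadjusted p under 0.05 in 6 and in 5 arrays). The largest differences in 6 arrays were those of Col1a2 at -2.34 (SE 0.70) and Cdh11 at -2.29 (SE 0.80). In 5 arrays they were those of Col3a1 at -2.18 (SE 0.79) and Col1a2 at -1.93 (SE 0.60). All 12 mesenchymal genes exceeded the control in positive replicate 1, and 9 and 4 did in replicates 2 and 3. Their summed deposited signal was 2214, 120 and 11.7 in positive and 5249, 5850 and 994 in negative replicates 1, 2 and 3. The part of mesenchymal cells in the members' signal was not tested. Erythroid list medians were below 0 in all 3 positive arrays, at -1.71, -1.16 and -1.98. Of the erythroid genes 2 of 8 fell in 6 arrays and 5 of 7 in 5. Among them was the embryonic globin Hbb-bh1, by 4.07 on the log2 scale (SE 0.57, adjusted p = 0.0486, limma) in 6 arrays. That call held in 7 of 16 alternatives, whose adjusted p ran from 1.18e-09 to 0.676, and was lost with the replicate block, with pseudocounts 4 and 64, and without positive replicate 1, negative replicate 1 or negative replicate 3, among others. These changes are set against 0.0355% and 0.0142% of all genes called higher and lower in 6 arrays and 0.516% and 0.0501% in 5.

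**Figure D3:**
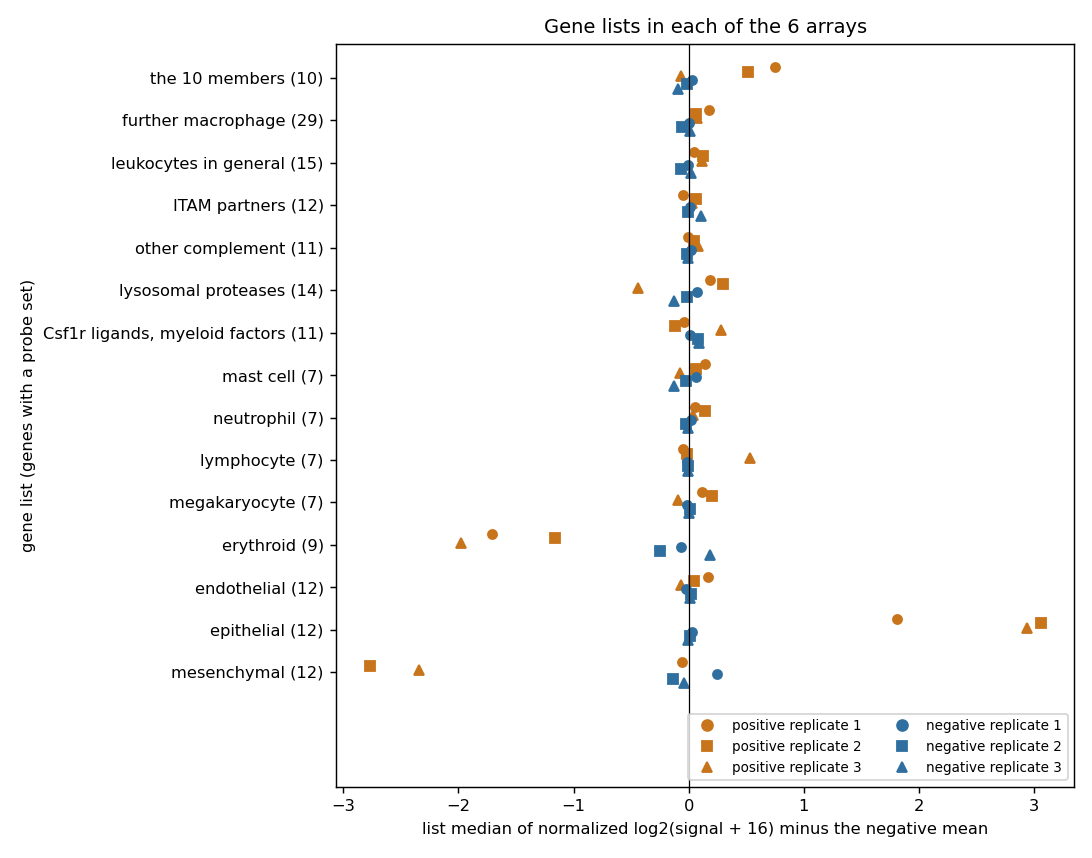
Median of each gene list in each of the 6 arrays, as normalized log2(signal + 16) minus the mean of the negative arrays, with the number of genes that have a probe set in brackets. The members lie at 0.75 and 0.51 in positive replicates 1 and 2 and the further macrophage genes at 0.18 and 0.07. Epithelial and erythroid genes lie farther from 0 there. Mesenchymal genes lie at -0.06 and -2.77 in the same arrays.

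Other macrophage genes did not pass the test, which had little power for small differences. In simulated data with a common spread within each array, 6.4% of changes of 1 on the log2 scale were called in 6 arrays. In 5 arrays 52.8% were. The absence of calls in this and the following lists therefore does not show that these genes were alike in both groups. A list of 32 further macrophage genes had 29 genes with a probe set, and 8 of these exceeded the control on no array. In the 6 arrays 0 of 19 tested genes were called (limma, and 0 at an unadjusted p under 0.05), with a median difference of 0.21 and 15 positive differences. In the 5 arrays 0 of 18 were called (limma, and 4 at an unadjusted p under 0.05), with a median of 0.23 and 17 positive differences. Among all genes tested, with the brightest probe set of each, 47.2% and 49.6% had a positive difference in 6 and in 5 arrays. Positive arrays were above all negative ones for 2 of the 19 and 7 of the 18, against 6.29% and 13.2% of all genes. The summed deposited signal of the list was 191, 119 and 19.5 in positive and 191, 200 and 56.5 in negative replicates 1, 2 and 3.

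Dab2, an endocytic adaptor that many tissues also make and that was picked after its values were seen, was the brightest gene of the list and made up much of this sum. It read 57.9, 37.7 and 1.22 in positive and 69.8, 109.7 and 23.0 in negative replicates 1, 2 and 3, above the control on all 6 arrays. Its difference was -0.19 (SE 0.45, adjusted p = 0.907, limma) in 6 arrays and 0.21 (SE 0.33, adjusted p = 0.923, limma) in 5. Ly86, a partner of a Toll-like receptor relative, had the highest difference of the list in the 5 arrays at 0.62 (SE 0.18, adjusted p = 0.247, limma). It read 8.33, 7.11 and 0.10 in positive and 5.39, 0.60 and 0.14 in negative replicates 1, 2 and 3. Adgre1, the F4/80 antigen by which mouse macrophages are commonly recognised, read 11.5, 9.59 and 0.38 against 10.9, 6.58 and 2.70, with 0.49 (SE 0.22, adjusted p = 0.587, limma). It exceeded the control on 2 of 3 arrays in either group. In the 6 arrays Cybb, a subunit of the phagocyte oxidase, and Clec7a, a receptor for fungal glucans, had the largest differences at 1.05 each (SE 0.66 and 0.58, adjusted p = 0.753 for both, limma). Both rest on positive replicate 3: Cybb read 3.13, 0.71 and 2.64 in positive and 0.33, 0.39 and 1.76 in negative replicates 1, 2 and 3, and only positive replicate 3 exceeded its control. Without that array the brightest probe set of Cybb was another one, with a difference of 0.04, and Clec7a did not pass the filter. Among genes picked after their values were seen, Cx3cr1, the fractalkine receptor, read 16.6, 3.34 and 0.05 against 9.65, 9.31 and 0.39, and Aif1 (Iba1) exceeded the control on no array.

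Partners of the members in their pathways were also tested. Of the Fc receptors, Trem receptors and kinases that work with the ITAM adaptors, 0 of 8 genes were called in 6 arrays and 0 of 9 in 5 (limma, with 0 and 2 at an unadjusted p under 0.05). Their medians were 0.07 and -0.02, and the largest difference in the 5 arrays was that of Trem3 at -0.46 (SE 0.21). Of the other complement genes 0 of 6 were called in either fit (limma, 0 at an unadjusted p under 0.05), with a median of 0.05. The complement regulator Cd55 had the largest difference, 0.59 (SE 0.31) in 6 arrays and 0.50 (SE 0.27) in 5, followed by C1s1, a protease that C1q activates together with C1r, at 0.24 in 6 and the receptor C3ar1 at 0.21 in 5. Of the other lysosomal proteases and their inhibitors 0 of 12 were called in either (limma, 2 and 3 at an unadjusted p under 0.05). Their medians were -0.07 in 6 and 0.22 in 5 arrays. Cstb, a cathepsin inhibitor that epithelia also make, differed by 1.40 (SE 0.36, adjusted p = 0.145, limma), and Ctsc, cathepsin C, by 0.73 (SE 0.32, adjusted p = 0.579, limma), both in the 5 arrays. In the 6 arrays the largest were those of Ctsl, cathepsin L, at -0.95 (SE 0.75) and Ctsh, cathepsin H, at 0.85 (SE 0.36). Over the alternatives in 5 arrays, without positive replicate 3, Ctsl was at -0.71 to 0.37 and Ctsh at -0.27 to 0.09. The ligands of Csf1r and the myeloid transcription factors had 0 of 10 and 0 of 9 genes called (limma, 0 at an unadjusted p under 0.05 in both), with the transcription factors Cebpb at 0.40 (SE 0.37) in 6 and Tfec at 0.41 (SE 0.22) in 5 the farthest from 0. Cebpb was at -0.12 to 0.05 over the alternatives in 5 arrays. The ligand Csf1 read 13.6, 8.84 and 1.25 in positive and 17.9, 20.5 and 6.96 in negative replicates 1, 2 and 3, above the control on all 6 arrays, and Il34 exceeded it on none. Both ligands were picked after their values were seen.

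Genes of leukocytes in general had 0 of 13 called in both fits (limma, 1 and 3 at an unadjusted p under 0.05), with medians of 0.16 and 0.10. Lcp1, an actin-bundling protein of blood cells that some epithelia also make, read 18.8, 26.6 and 1.44 in positive and 8.06, 3.29 and 2.28 in negative replicates 1, 2 and 3. Its difference was 1.16 (SE 0.31, adjusted p = 0.753, limma) in 6 arrays and 1.29 (SE 0.27, adjusted p = 0.0519 with limma; in 15 alternatives 6.35e-05 to 0.9998) in 5. Plek, a protein kinase C substrate of platelets and leukocytes, differed by 0.62 (SE 0.20, adjusted p = 0.328, limma) in 5. Ptprc, which encodes the leukocyte antigen CD45 and was picked after its values were seen, read 5.19, 3.88 and 0.04 against 12.2, 4.77 and 2.49. The difference of Ptprc was -0.12 (SE 0.18) in 6 arrays and 0.01 (SE 0.19) in 5.

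Of the other blood and vessel lists, megakaryocyte genes were the only one with a call among those of mast cells, neutrophils, lymphocytes, megakaryocytes and endothelium. In the 5 arrays the other lists had 0 called of 5, 3, 1 and 10 tested genes (limma, 1, 0, 0 and 0 at an unadjusted p under 0.05), with the mast cell and progenitor factor Gata2 farthest from 0 at 0.93 (SE 0.33). In the 6 arrays all 5 lists had 0 called (limma, 2 megakaryocyte genes and 0 others at an unadjusted p under 0.05). In the 5 arrays 2 of 6 tested genes rose in the positive cells, Pf4 and Ppbp. Pf4, platelet factor 4, a chemokine of megakaryocytes that some tissue macrophages also make, read 73.3, 58.4 and 0.61 in positive and 13.4, 18.8 and 1.33 in negative replicates 1, 2 and 3. Its difference was 2.33 (SE 0.30, adjusted p = 0.000821 with limma; in 15 alternatives 1.06e-09 to 0.9998, past the threshold in 13). Ppbp, pro-platelet basic protein, read 28.6, 12.4 and 0.04 against 3.51, 2.90 and 0.09, with a difference of 1.34 (SE 0.23, adjusted p = 0.0103 with limma; in 15 alternatives 1.56e-05 to 0.9998, past it in 10). Without negative replicates 2 or 3 Ppbp was not called. In the 6 arrays neither gene was called, with differences of 1.43 (SE 0.57) and 0.78 (SE 0.34) and an adjusted p of 0.753 each (limma). The integrin Itga2b, a defining surface marker of the lineage picked after its values were seen, read 11.5, 9.14 and 0.24 against 13.6, 19.7 and 6.67, and Gp9 exceeded the control on no array.

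**Figure D4:**
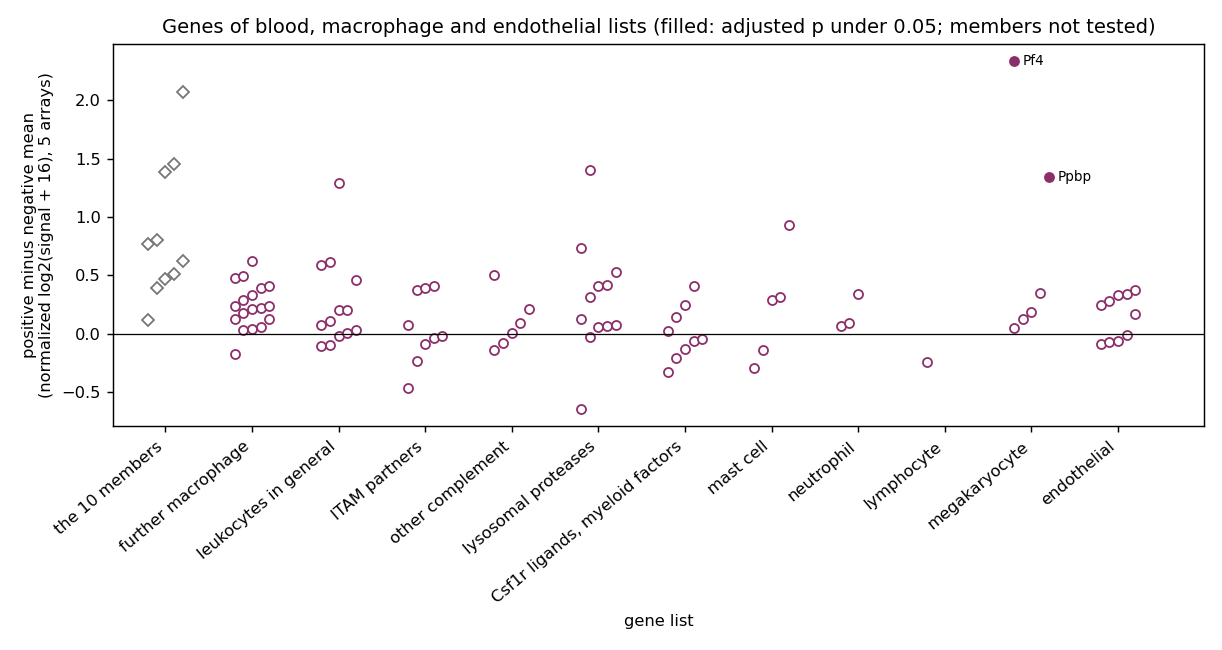
Difference between positive and negative arrays for each tested gene of the blood, macrophage and endothelial lists in the 5 arrays, on the normalized log2(signal + 16) scale, with genes outside the 10 members at an adjusted p under 0.05 filled. The members, chosen from this contrast, are grey diamonds with no test, and Pf4 at 2.33 and Ppbp at 1.34 are filled.

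The genes whose pattern over the arrays was most like the members' mean included these platelet transcripts. Over the 6 arrays, among 6717 genes above the control on at least 2 arrays and varying by at least 1 on the log2 scale, the highest Pearson correlations were those of Pf4 at 0.972, Ppbp at 0.966, the mannosidase Man1a at 0.966, the calcium-binding protein S100a6 at 0.964 and the epithelial cadherin Cdh1 at 0.961. Over the 5 arrays, among 2922 genes, they were those of Krt15 at 0.997, Sfn at 0.996, Mbnl1 at 0.996, Bace1 at 0.992 and Pf4 at 0.989. In these comparisons 15 and 47 genes had a correlation above 0.95. The points share the sort, so a gene that separates the groups can correlate with the members. In the 6 arrays this also needs a lower normalized value in positive replicate 3 than in the other positive arrays. The values are a description over few arrays.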

How the data were processed

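Each array was deposited as linear intensities, 1 for every probe set, given to 2 decimals and never below 0. GCOS is named for 1 of the 6 samples in the submitters' processing notes, without a version, and no source used here gives the summarization, scaling or filters. Of 45037 probe sets other than controls, 34945 had 1 gene name, 932 several and 9160 none. For 34741 the symbol was taken from RefSeq (GRCm38.p6) by gene identifier.

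Linear values were quantile normalized and set to log2(signal + 16). Named probe sets with a mean above the 30th percentile, 24461 in either fit, entered limma 3.58.1 (R 4.3.3; lmFit, then eBayes with trend). Adjusted p-values (Benjamini-Hochberg over all of them) were held to 0.05. Differences are positive minus negative. Lists were counted by the brightest probe set of each gene. The steps were tested on simulated data. The members, the gene lists and the 5-array comparison were chosen with earlier results of these data known. Named in the text are all probe sets of the members, up to 4 called and 2 other genes of each further list by size of the difference, the 5 most similar genes, and others marked as picked after their values were seen. The labels do not say whether samples came from separate litters, so p-values measure the spread between arrays. The number of arrays limits the precision.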

Additional observations from a re-analysis of the deposited data

How the results depend on the processing

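The median difference of the 10 members in 6 arrays was 0.42. It was 0.13 to 0.61 under the other normalizations, pseudocount 64, filters, weights and block, and 1.04 with pseudocount 4. Leaving out 1 replicate gave 0.31 to 0.69. The filters, the brightest probe set per gene and the block left it at 0.42, as they do not alter the group means. Values as deposited and values scaled to spiked controls shifted the median of all tested probe sets to -0.39 and -0.44 in 6 arrays. Against these medians all 10 members lay higher, but against 0 only 7 did, and Lgmn, Tyrobp and Mrc1 were negative. Lgmn and Mrc1 were also negative without positive replicate 1, and Tyrobp without positive replicate 2 or negative replicate 3. The cause of these changes was not tested. By the brightest probe set of each, the other 7 members kept a positive difference in all 16 alternatives. Among the further probe sets, 1423593_a_at of Csf1r was negative in the main fit of 6 arrays, at -0.21. The members were chosen from this contrast, so nothing is read from these signs.

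Over all probe sets, 12 were called in 6 arrays (7 higher, 5 lower) and 99 in 5 (86 higher, 13 lower). In 6 arrays the count was 0 as deposited, with spiked-control scaling and with pseudocount 64, 2 with the brightest probe set per gene, 680 with array weights, and 0 to 99 leaving out 1 replicate, with 0 without negative replicate 1 or 3, 25 without positive replicate 1 and 99 without positive replicate 3. In 5 arrays it was 0 as deposited and with spiked-control scaling, 22 with no filter, 394 with array weights, and 36 to 361 leaving out 1 replicate (361 without positive replicate 1, and 36, 50 and 51 without positive replicate 2, negative replicate 2 and negative replicate 3). With pool size as a replicate block the counts were 4 in 6 arrays and 879 in 5, where negative replicate 3 is alone in its block. Deviations of arrays with equal pool size correlated at 0.12, 0.03 and 0.10, and those of arrays with unequal pool size at -0.12 to 0.06. Sample titles number the positive and negative arrays of equal pool size consecutively, but the labels do not say whether they share embryos. The main fits left this pairing out, and the counts with the block differ from theirs.

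The count of further macrophage genes called stayed 0 in all alternatives but array weights over 6 arrays, which gave 1 (limma). Signal over background was lowest in positive replicate 3, where 24.6% of all named probe sets and 2 of the 14 of the members exceeded the control.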
